A study of Mus musculus with 9 samples.

Results

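The nuclear genes of the mitochondrial respiratory chain were followed across 9 arrays of cultured mouse blood progenitors. They were taken by name, as every gene name of the array starting with Nduf, Uqcr, Atp5, Sdh followed by a to d, or Cox followed by 4 to 8. This gave 92 genes of 36413 gene names on the array, measured by 123 probes, and each gene was represented by its probe with the highest mean. By name, 36 genes belonged to complex I, 4 to complex II, 8 to complex III, 19 to complex IV, 15 to complex V, and 10 were assembly or other factors. The rule reads names only, and the set was chosen with earlier results of these data known. Every probe was placed on a nuclear chromosome of mm9, as the name of the set says. An exception to the label is Cox4nb, now called Emc8, which is a gene of the membrane protein insertion complex of the endoplasmic reticulum and not of the respiratory chain. It was kept because the rule names it.

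The cells were LSK cells, a bone marrow fraction that carries Sca1 and cKit, lacks lineage markers and holds the blood stem cells and early progenitors. There were 3 Drosha-deleted samples (Drosha fl/fl), 3 Dicer-deleted samples (Dicer fl/fl) and 3 control samples, for which no floxed gene is named. All mice were female and carried Gt(ROSA)26Sor CreERT2, a Cre that tamoxifen activates, the controls included. All 9 samples were kept for 72 h with 250 nM 4OH-tamoxifen, 10 ng/mL IL-3, 10 ng/mL IL-6, 50 ng/mL stem cell factor and 10% serum at 50000 cells per well. The Cre is made from the Rosa26 locus, which is active in nearly all cells, so deletion was not limited to a cell type. Nothing in the labels ties the repeats to separate mice. The p-values therefore reflect the spread among these 9 samples alone, which may be technical.

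The respiratory chain sits in the inner membrane of mitochondria. Complexes I and II take electrons from NADH and succinate, complex III passes them on through cytochrome c to complex IV, which reduces oxygen, and complex V uses the proton gradient to make ATP. Most subunits are encoded in the nucleus and imported, while a few core subunits are encoded in mitochondrial DNA, so that both genomes contribute to each complex except complex II. Quiescent blood stem cells are known to rely little on respiration, and entry into cycle and differentiation raises it. Drosha cuts primary microRNA transcripts in the nucleus and Dicer cuts the resulting hairpins in the cytoplasm, so both deletions stop most microRNA production.

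The promoters of the nuclear respiratory chain genes, which the naming rule did not use, are described first. Windows from 250 bases before to 50 bases after the transcription start, from RefSeq on GRCm38.p6, were found for 76 of the genes (82 windows, 300 bases each). Stretches of 160 bases are shown for 1 gene per complex, chosen as holding the motif matches of NRF1 or GABP, factors known to act at genes of this pathway. Each is written 5′ to 3′ on the strand of the gene, with matches to the NRF1 motif GCGCANGCG or the GABP motif CCGGAAG, on either strand, in capitals.
Ndufs5: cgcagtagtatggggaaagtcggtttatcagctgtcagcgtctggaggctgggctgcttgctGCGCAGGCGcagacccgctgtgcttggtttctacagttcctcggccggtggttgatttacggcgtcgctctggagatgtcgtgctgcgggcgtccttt
Sdhd: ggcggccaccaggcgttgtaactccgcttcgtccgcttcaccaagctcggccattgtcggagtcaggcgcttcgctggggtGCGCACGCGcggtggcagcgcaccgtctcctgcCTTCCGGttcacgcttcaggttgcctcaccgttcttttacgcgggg
Uqcr11: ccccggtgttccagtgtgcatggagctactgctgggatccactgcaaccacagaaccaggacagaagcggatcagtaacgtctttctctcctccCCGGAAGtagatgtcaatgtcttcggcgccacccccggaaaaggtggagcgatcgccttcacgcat
Cox6a1: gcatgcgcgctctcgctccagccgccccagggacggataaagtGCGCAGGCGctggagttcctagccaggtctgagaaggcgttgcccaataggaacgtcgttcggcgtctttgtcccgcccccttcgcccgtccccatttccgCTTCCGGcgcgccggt
Atp5h: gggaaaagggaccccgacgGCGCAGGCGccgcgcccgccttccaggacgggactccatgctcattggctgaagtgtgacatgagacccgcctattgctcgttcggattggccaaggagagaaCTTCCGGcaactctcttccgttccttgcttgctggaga
The Ndufs5 stretch (complex I) lay at chr4:123718187-123718346 and the Sdhd stretch (complex II) at chr9:50603850-50604009. The Uqcr11 stretch (complex III) lay at chr10:80406822-80406981, the Cox6a1 stretch (complex IV) at chr5:115348959-115349118 and the Atp5h stretch (complex V) at chr11:115419920-115420079, and all 5 genes are on the minus strand.

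The NRF1 motif was present in 22 of the 82 windows (26.8%), against 6.25% of all 32851 windows of the table. The GABP motif was present in 19 windows (23.2%), against 8.86% of all windows. The YY1 motif AAGATGGCG was present in 9 windows (11.0%), against 1.40% of all windows. At least 1 of the 3 was present in 42 windows (51.2%), against 14.8% of all windows. Among the 21263 windows of protein-coding genes the NRF1, GABP and YY1 motifs were present in 8.58%, 11.6% and 1.83%. General promoter motifs were closer to the background: the Sp1 motif GGGGCGGGG was present in 15.9% against 11.4%, CCAAT in 43.9% against 37.4%, and TATAAA in 9.76% against 13.6%. The letters chosen matter: the longer GABP spelling CCGGAAGTG was present in 2.44% of the windows, against 2.03% of all and 2.71% of protein-coding ones. Among protein-coding windows the Sp1 motif was present in 15.4%, and the shorter Sp1 spelling GGGCGG in 46.2%, against 43.9% of the members' windows. The looser YY1 spelling AANATGGCG was present in 15.9% against 2.38%, and the ERR alpha motif TGACCTTG in 4.88% against 1.56%. The YY1 spellings overlap each other, as do those of GABP. Both strands were searched, the letters were settled after several spellings had been counted, and a match describes the letters in the window, not a bound site.

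The arrays measure each transcript with 60-base probes, and 2 of them are shown because their genes carry results below, 5′ to 3′ as printed on the array.
Uqcrc1: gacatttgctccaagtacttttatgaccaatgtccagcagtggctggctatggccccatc
Cox4i1: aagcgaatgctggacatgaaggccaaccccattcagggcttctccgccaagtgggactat
On mm9 the Uqcrc1 probe was placed at chr9:108851008-108851487 (plus strand) and the Cox4i1 probe at chr8:123197924-123197983 (plus strand). The Uqcrc1 probe spans 480 bases of the genome for its 60 bases, while the Cox4i1 probe is contiguous.

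Before the comparisons, the check of the deletions and the quality of the arrays are given once. All values below are the authors' deposited log2 values, so that a difference of 1 is a factor of 2. The probe of Drosha, listed under its older name Rnasen, was at 8.81, 8.92 and 9.32 in Drosha-deleted samples, 11.99, 12.16 and 11.94 in Dicer-deleted samples, and 12.04, 11.88 and 11.85 in control samples (difference from control -2.91, adjusted p 0.000153 by limma). Dicer1 was at 8.99, 9.18 and 8.97 in Dicer-deleted samples and 9.92, 10.50 and 10.44 in control samples, a difference of -1.24 that did not pass (adjusted p 0.118). Whether either probe lies in the deleted stretch is not given in the sources used here. Of 10 LSK and stem cell markers 9 were tested, among them Kit, Ly6a, Cd34 and Flt3, which were well above background on all 9 arrays. Mecom, well above background on 5 arrays, was not tested. The neutrophil genes Mpo and S100a9 and the megakaryocyte gene Pf4 were also well above background on all 9 arrays. Detection therefore does not tell LSK cells from mature cells here. Lists of other marker genes covered mast cells, neutrophils, monocytes, erythroid cells, megakaryocytes, eosinophils, dendritic cells, B and T cells, and the cell cycle. Of these genes 1 passed the test, the monocyte gene Cd14 in Drosha-deleted samples (difference -1.26, adjusted p 0.0300). By limma, 6 and 5 of 10 cell cycle genes had an unadjusted p under 0.05 in Drosha-deleted and Dicer-deleted samples. Dendritic genes gave 1 and 4 of 6, megakaryocyte genes 1 and 5 of 8, and neutrophil genes 0 of 10 in each. Monocyte genes gave 3 and 0 of 10, B and T cell genes 3 and 1 of 4, and eosinophil genes 2 and 0 of 5. LSK genes gave 3 and 1 of 9, erythroid genes 1 and 2 of 9, and mast cell genes 0 and 1 of 9. The shares of all genes were 26.9% and 21.9%. Against control replicate 1 alone, all 10 monocyte genes were lower in each deletion, while 10 and 9 of 10 cell cycle genes were higher. Also lower in Drosha-deleted and Dicer-deleted samples were 9 and 10 of 10 neutrophil genes and 7 and 8 of 8 megakaryocyte genes. The lower counts were 4 and 6 of 6 for dendritic, 3 and 5 of 5 for eosinophil and 5 and 7 of 9 for mast cell genes. They were 4 and 5 of 9 for LSK, 2 and 4 of 9 for erythroid and 0 and 2 of 4 for B and T cell genes. A change in cell types was not tested.

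Control replicates 2 and 3 stood apart from the other 7 arrays in the deposited values. Their bright control spots had medians of 13.7 and 13.9, against 15.4 to 15.6 on the other 7 arrays, and their columns correlated best with each other (0.991). Control replicate 3 was alone on the second slide, so slide and sample cannot be told apart for it. The scanner file held for control replicate 2 correlated with its deposited column by 0.770, against 0.974 to 0.985 for the other 8 arrays, and the scanner software flagged 19.2% of its spots for uneven signal. Differences from control are therefore also given without both where those arrays lie apart, which leaves control replicate 1 alone and assumes that it varies like the other groups.

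**Figure D1:**
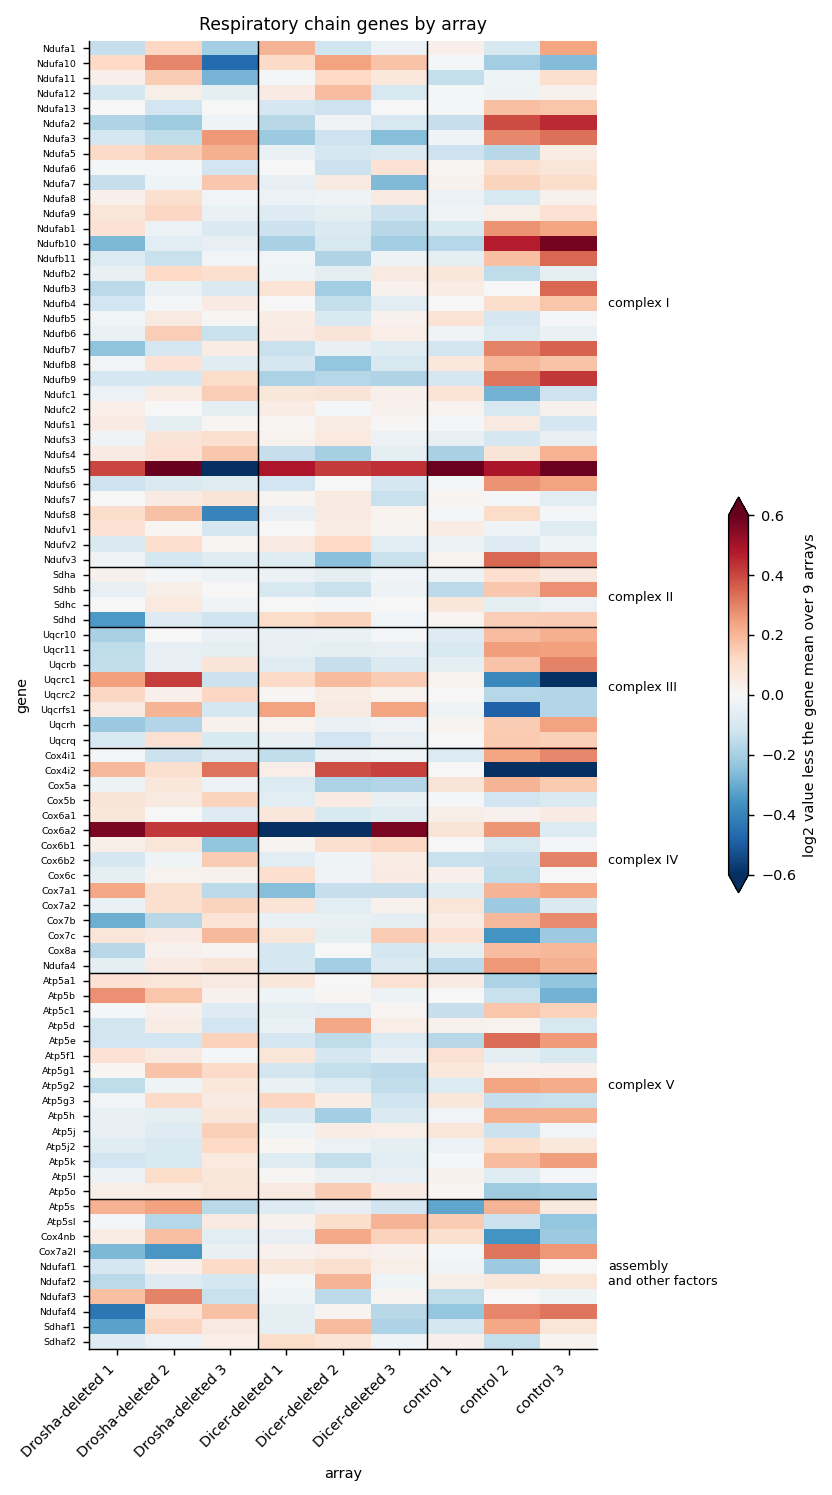
Heat map of 87 of the 88 tested genes (rows, by complex) on the 9 arrays (columns), coloured by the log2 value less the mean of the gene over the 9 arrays, with colours ending at 0.6 either way. Control replicates 2 and 3 form the visible block, red for 32 genes above the other 7 arrays, and Drosha-deleted replicate 3 is low for Ndufs5 and Ndufa10.

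No nuclear respiratory chain gene passed an adjusted p of 0.05 in either deletion, and the typical difference was small. Of the 92 genes, 88 (95.7%) were well above background on all 9 arrays and entered the test, for which 63.2% of all gene names were kept, and none was saturated. The fit was limma over 23020 genes with Benjamini-Hochberg adjustment. Drosha-deleted against control, 39 genes of the array passed (0.169%), and 0 of the 88 did. The smallest adjusted p among the 88 was 0.116, and 8 of them had an unadjusted p under 0.05 (9.09%), against 26.9% of all genes. Dicer-deleted against control, 4 genes of the array passed (0.0174%), and 0 of the 88 did. The smallest adjusted p there was 0.158, and 10 of the 88 had an unadjusted p under 0.05 (11.4%), against 21.9% of all genes. Drosha-deleted against Dicer-deleted, 13 genes of the array passed (0.0565%) and 0 of the 88, with 2 of the 88 (2.27%) at an unadjusted p under 0.05, against 5.66% of all genes. The F test for any difference among the 3 groups passed 21 genes of the array (0.0912%) and 0 of the 88, of which 4 had an unadjusted p under 0.05 (4.55%), against 22.0% of all genes.

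Intervals from the fit describe the precision of the differences among these arrays alone. They treat the shift of the controls that lie apart as spread between replicates, and they do not cover the choice of processing. They therefore set no bound on the effect of the deletions. The 95% interval of the difference lay within 1 log2 unit of 0 for 85 of the 88 genes in Drosha-deleted samples and for 84 in Dicer-deleted samples, against 75.3% and 77.3% of all genes. It lay within 1.5-fold for 75 and 71 of the 88, against 38.6% and 41.0% of all genes. Between the 2 deletions, the interval lay within 1.5-fold for 84 of the 88 (95.5%), against 54.6% of all genes. The genes also varied less between replicates than the array as a whole. All 88 lay above the median of the spots of each array (6.36 to 6.38), most of them far above. Neither their spread nor their intervals were compared with those of other genes of like brightness. The median SD of the 88 genes was 0.09 in Drosha-deleted, 0.06 in Dicer-deleted and 0.12 in control samples, against 0.16, 0.15 and 0.24 over all genes.

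**Figure D2:**
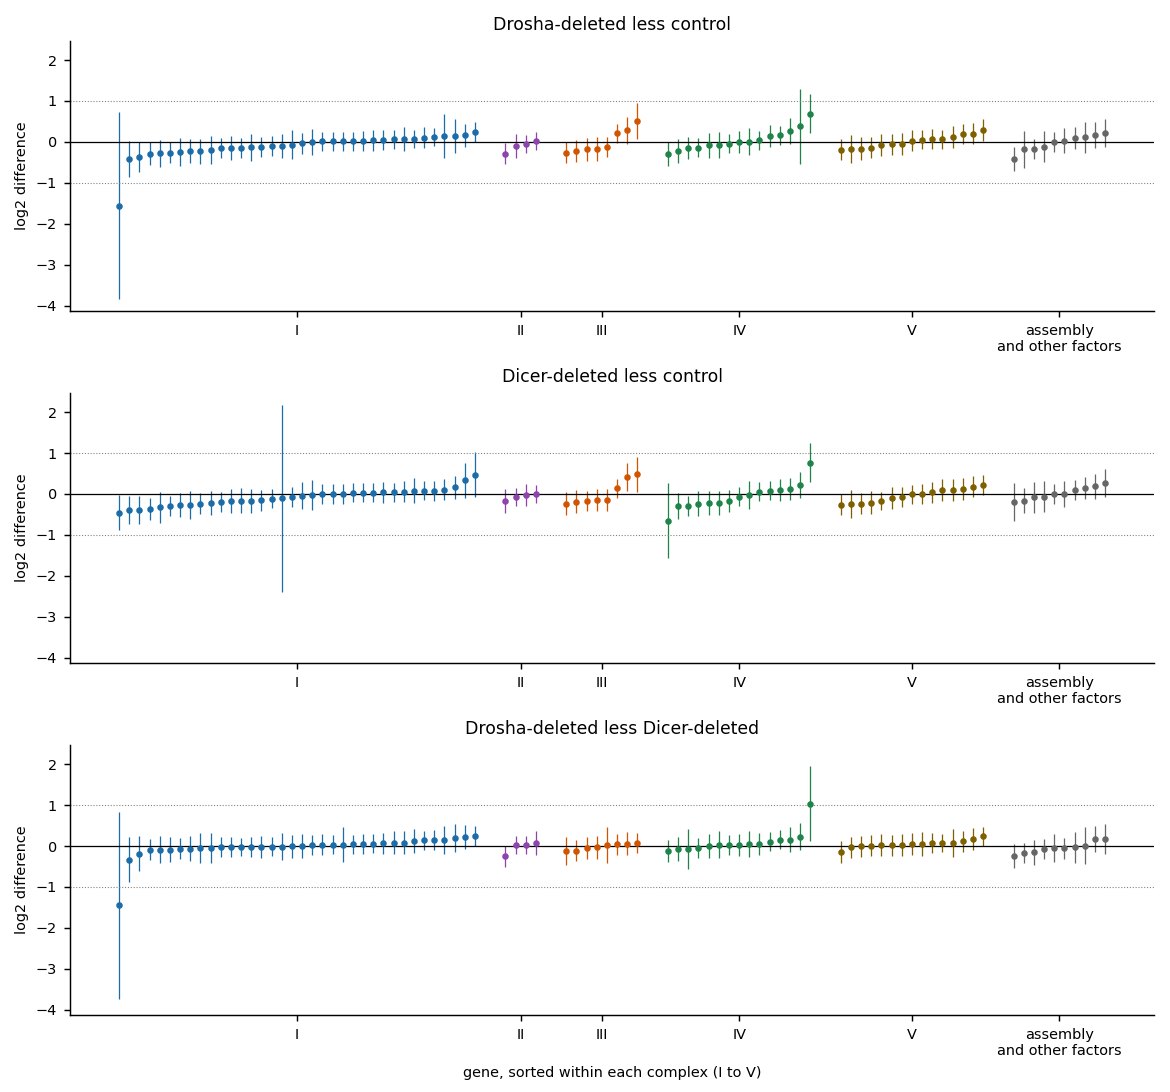
Log2 difference of each of the 88 genes (points, sorted within each complex) with its 95% interval (bars), for each deletion against control and for Drosha-deleted against Dicer-deleted samples; dotted lines mark 1 log2 unit. Nearly all intervals lie between the dotted lines (85, 84 and 86 of 88), and Ndufs5 has the widest interval in all 3 panels.

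The median difference over the 88 genes was -0.04 in Drosha-deleted samples and -0.05 in Dicer-deleted samples, beside a median of all genes of -0.00 in each comparison. Its sign depended on the controls and the processing. Without control replicates 2 and 3 it was 0.01 and -0.00. In scanner values, less the median of all genes, it was 0.08 in each, with the file of control replicate 2 that stands apart included. Without control replicate 2 the scanner values gave -0.096 and -0.11, and their processing by normexp with quantile normalisation gave -0.21 and -0.22. In Dicer-deleted samples the scanner values with that file were the only positive ones among the alternatives. In Drosha-deleted samples 41 of the 88 had a higher mean than in controls and 47 a lower one. In Dicer-deleted samples 36 had a higher mean and 52 a lower one. The counts without control replicates 2 and 3 were 47 higher and 41 lower in Drosha-deleted samples, and 43 higher and 45 lower in Dicer-deleted samples. Both comparisons share the control samples, so their directions are not independent. By complex, the median differences in Drosha-deleted samples ran between -0.15 for complex III and 0.03 for complex V, and in Dicer-deleted samples between -0.14 for complex III and 0.00 for the assembly and other factors. Without control replicates 2 and 3 the medians for complex III were 0.01 and 0.03. A bulk array cannot tell fewer cells of a type from less RNA per cell.

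Control replicates 2 and 3 lay apart from the other 7 arrays for many of these genes. In both of these controls 32 of the 88 genes lay above all of the other 7 arrays (36.4%, against 22.8% of all genes), and 14 lay below all of them (15.9%, against 22.6% of all genes). Complex I had 12 genes above and 1 below, complex II 3 and 1, complex III 5 and 3, complex IV 5 and 4, and complex V 5 and 4. Control replicate 1 lay within the range of the 6 deleted samples for 37 of these 46 genes, outside it toward control replicates 2 and 3 for 5, and outside it on the other side for 4. The choice of these 46 genes already set control replicate 1 apart from control replicates 2 and 3, so its position is partly fixed in advance. The same count over all genes is not given here. Without control replicate 1, 7743 of the 23020 genes passed in Drosha-deleted samples and 7020 in Dicer-deleted samples, with 15 and 23 of the 88 among them. In both comparisons this was a smaller share of the 88 than of all genes. Without control replicates 2 and 3, 0 of the 88 passed in each comparison. Other gene lists moved with the same 2 arrays: the median of 10 cell cycle genes, relative to each gene's mean over the arrays, was -0.24 and -0.43 in control replicates 2 and 3, against 0.02 to 0.17 on the other 7. For the 4 tested of 8 B and T cell genes it was -0.52 and -0.53, against -0.08 to 0.39. Their part in the shift was not tested.

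Complex I, which oxidises NADH, contributed 36 genes, all of them tested. Ndufb10, an accessory subunit of the membrane arm (probe at chr17:24859019-24859078 on mm9), was at 15.05, 15.25 and 15.27 in Drosha-deleted samples, 15.12, 15.22 and 15.12 in Dicer-deleted samples, and 15.15, 15.79 and 15.90 in control samples. Only control replicates 2 and 3 were high, and control replicate 1 lay within the range of the deleted samples. The differences from control were -0.42 ± 0.19 (SE) in Drosha-deleted and -0.46 ± 0.19 in Dicer-deleted samples, with adjusted p 0.193 and 0.211 by limma. After removal of control replicates 2 and 3 they were 0.04 and 0.01. Ndufa2, Ndufb7, Ndufb9 and Ndufs6, further accessory subunits, had the same arrangement of arrays, with differences of -0.25 to -0.37 in Drosha-deleted and -0.24 to -0.39 in Dicer-deleted samples. Against control replicate 1 alone these were -0.08 to 0.07 and -0.08 to 0.05. Ndufa3, an accessory subunit of the membrane arm, had -0.20 and -0.40, which were 0.03 and -0.17 without those controls. For Ndufv3, an accessory subunit of the peripheral arm, control replicate 1, at 15.59, also lay above all 6 deleted samples, and the differences of -0.28 and -0.37 were -0.09 and -0.18 without control replicates 2 and 3. The other probe of Ndufv3 had the opposite sign, at 0.07 and 0.10. Ndufc1, an accessory subunit of the membrane arm, had 0.16 and 0.17, which were -0.03 and -0.02 without those controls. Ndufs4, an accessory subunit of the peripheral arm, had a difference of 0.23 between Drosha-deleted and Dicer-deleted samples.

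Ndufa10, an accessory subunit of the membrane arm, had positive differences from control. It was at 12.81, 12.98 and 12.23 in Drosha-deleted samples, 12.80, 12.93 and 12.86 in Dicer-deleted samples, and 12.68, 12.48 and 12.43 in control samples. Drosha-deleted replicate 3 was the lowest of the 9 arrays, below all controls, while the Dicer-deleted samples lay above all controls. The differences were 0.14 ± 0.19 in Drosha-deleted samples (adjusted p 0.638) and 0.33 ± 0.19 in Dicer-deleted samples (adjusted p 0.309). Without Drosha-deleted replicate 3 the first was 0.37, and without control replicates 2 and 3 they were -0.00 and 0.19. Ndufs8, a core subunit with iron-sulfur clusters, was at 12.34 in Drosha-deleted replicate 3 and between 12.69 and 12.92 on the other 8 arrays.

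Ndufs5, an accessory subunit, had the widest difference of the set, from 1 array. It was at 14.31, 14.51 and 9.91 in Drosha-deleted samples, 14.40, 14.33 and 14.35 in Dicer-deleted samples, and 14.50, 14.40 and 14.50 in control samples. The low value comes from a single spot, flagged for uneven signal in the scanner file. The difference of -1.56 ± 1.01 in Drosha-deleted samples (adjusted p 0.335) was -0.06 without that replicate. Ndufa5, an accessory subunit of the peripheral arm, had the highest difference from control among complex I genes in Drosha-deleted samples. It was at 14.71, 14.75 and 14.81 there, against 14.56, 14.49 and 14.51 in Dicer-deleted samples and 14.48, 14.43 and 14.64 in control samples. The Drosha-deleted samples lay above all others, yet neither the difference from control (0.24 ± 0.11, adjusted p 0.187) nor that from Dicer-deleted samples (0.24 ± 0.11, adjusted p 0.890) passed.

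The 7 core subunits of complex I that are encoded in the nucleus, a part of its core, had median differences of 0.05 and 0.04 in Drosha-deleted and Dicer-deleted samples. The 29 accessory subunits had medians of -0.12 and -0.16. Against control replicate 1 alone the medians were 0.01 and 0.03 for the core subunits and -0.02 and -0.03 for the accessory subunits. This split was made after the values had been seen and has no test.

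Complex II, succinate dehydrogenase, is the complex built from nuclear genes alone. Sdhd, a membrane anchor, was at 14.66, 14.92 and 14.88 in Drosha-deleted samples, 15.11, 15.13 and 14.98 in Dicer-deleted samples, and 15.01, 15.15 and 15.15 in control samples. The Drosha-deleted samples lay below all others, without passing the test (difference from control -0.28 ± 0.12, adjusted p 0.169). Without control replicates 2 and 3 the difference was -0.19. Sdha, the flavoprotein, Sdhb, the iron-sulfur subunit, and Sdhc, the other anchor, had differences of -0.05, -0.10 and 0.02 in Drosha-deleted samples and of -0.08, -0.18 and 0.00 in Dicer-deleted samples. Leaving out control replicates 2 and 3 gave 0.03, 0.15 and -0.05 in Drosha-deleted samples and -0.01, 0.07 and -0.07 in Dicer-deleted samples.

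All 8 complex III genes taken by the rule lay apart in control replicates 2 and 3. Cyc1, a complex III subunit that the rule does not name, did not, and it is counted below with the electron carriers. Cyc1 was at 14.68, 14.67 and 14.31 in Drosha-deleted samples, 14.68, 14.78 and 14.54 in Dicer-deleted samples, and 14.53, 14.77 and 14.44 in control samples. Uqcrc1, a core protein, was at 14.10, 14.27 and 13.73 in Drosha-deleted samples, 13.97, 14.04 and 14.01 in Dicer-deleted samples, and 13.87, 13.47 and 13.23 in control samples. Control replicates 2 and 3 were the lowest 2 arrays, and Drosha-deleted replicate 3 lay below control replicate 1. The differences were 0.51 ± 0.19 (adjusted p 0.143) and 0.48 ± 0.19 (adjusted p 0.200). With control replicate 1 as the only control they were 0.16 and 0.13. Uqcrfs1, the Rieske iron-sulfur protein, had differences of 0.28 ± 0.15 (adjusted p 0.252) and 0.41 ± 0.15 (adjusted p 0.188), and Uqcrc2, the partner core protein, had 0.21 and 0.14. Against control replicate 1 alone these were 0.08 and 0.20 for Uqcrfs1 and 0.09 and 0.02 for Uqcrc2. The 5 small subunits Uqcr10, Uqcr11, Uqcrb, Uqcrh and Uqcrq had differences of -0.13 to -0.26 in Drosha-deleted and -0.14 to -0.24 in Dicer-deleted samples. Without those controls they were -0.14 to 0.02 and -0.07 to 0.04, and Uqcrb turned to 0.02 in Drosha-deleted samples. The other 2 probes of Uqcrb gave 0.14 and 0.16 in Drosha-deleted samples with all controls. Uqcr11 was at 15.25, 15.35 and 15.34 in Drosha-deleted samples, 15.35, 15.34 and 15.35 in Dicer-deleted samples, and 15.31, 15.65 and 15.64 in control samples, so again only control replicates 2 and 3 were high.

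**Figure D3:**
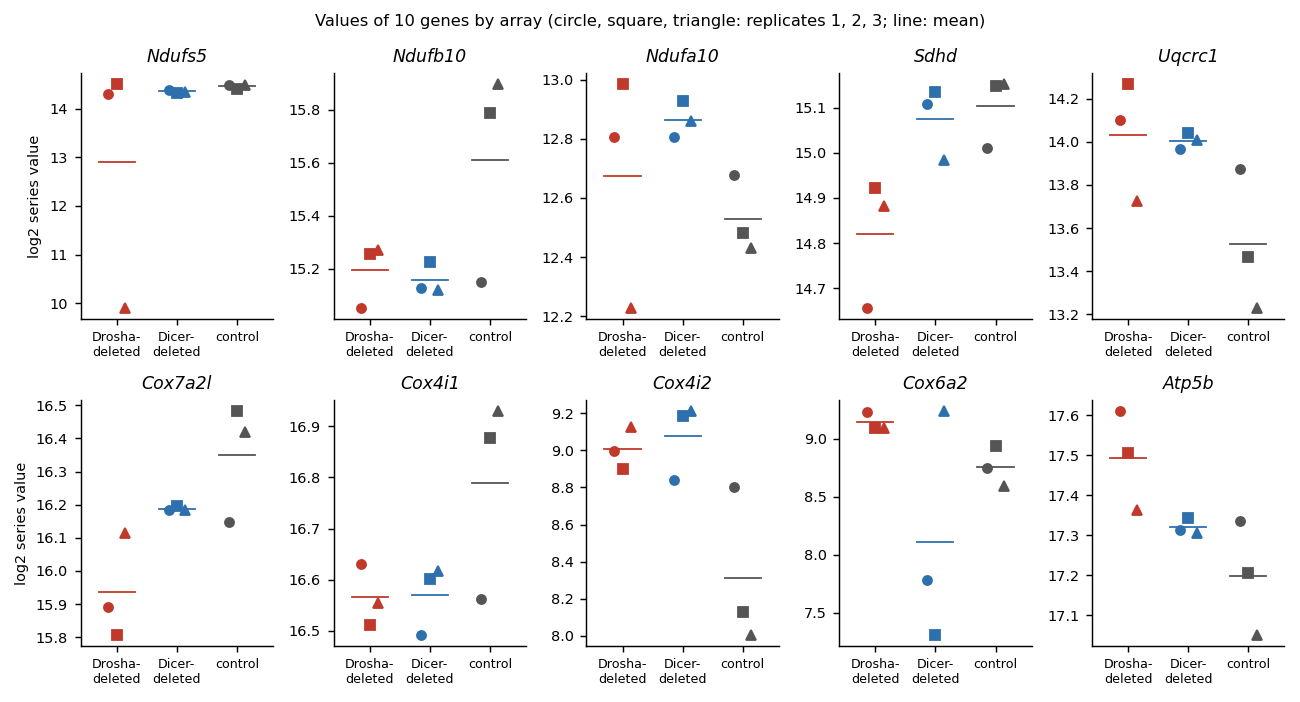
Log2 values of 10 genes on each array, by group, with the mean of each group as a line; each panel has its own axis, which does not start at 0. Control replicates 2 and 3 (square and triangle) lie apart from control replicate 1 for Ndufb10, Uqcrc1, Cox4i1 and Cox4i2, and Drosha-deleted replicate 3 is far below the rest for Ndufs5.

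Complex IV, cytochrome c oxidase, has tissue-specific isoforms, and their detection describes the cultures. Of 19 genes, 15 were well above background on all 9 arrays. These included Cox4i2, an isoform known from lung and low oxygen, Cox6a2 and Cox7a1, known from heart and skeletal muscle, and Cox6b2, known from testis, beside their ubiquitous partners. Cox7b2 and Cox8c, known from testis, Cox8b, known from muscle, and Ndufa4l2, induced by low oxygen, did not pass the filter. Cox7b2, Cox8b and Cox8c were well above background on 1 array each and Ndufa4l2 on 2, all of them control arrays. The flags of control replicate 2 come from the scanner file that stands apart, with 93.2% of probes above background.

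Cox4i2 had the largest positive difference in both deletions. It was at 8.99, 8.90 and 9.13 in Drosha-deleted samples, 8.84, 9.18 and 9.21 in Dicer-deleted samples, and 8.80, 8.13 and 8.01 in control samples. Every deleted sample was higher than every control, but control replicate 1 lay just below them. The differences were 0.69 ± 0.21 in Drosha-deleted samples (1.62-fold, adjusted p 0.116) and 0.77 ± 0.21 in Dicer-deleted samples (1.70-fold, adjusted p 0.158). Without control replicates 2 and 3 they were 0.20 and 0.28. Its partner Cox4i1 was at 16.63, 16.51 and 16.55 in Drosha-deleted samples, 16.49, 16.60 and 16.62 in Dicer-deleted samples, and 16.56, 16.88 and 16.93 in control samples. Its difference from control was -0.22 in each deletion (adjusted p 0.276 and 0.320). Against control replicate 1 alone it was 0.00 and 0.01.

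Cox6a2 had the largest positive difference of Drosha-deleted less Dicer-deleted samples. It was at 9.24, 9.10 and 9.10 in Drosha-deleted samples and 7.78, 7.31 and 9.24 in Dicer-deleted samples, with 8.75, 8.94 and 8.59 in control samples. Dicer-deleted replicate 3 was as high as the Drosha-deleted samples while the other 2 were low, so the groups overlapped. The difference of 1.03 ± 0.41 between Drosha-deleted and Dicer-deleted samples did not pass (adjusted p 0.803). The ubiquitous Cox6a1 lay between 17.59 and 17.75 on all 9 arrays. Cox7b, a small X-linked subunit, and Cox7c, another small subunit, had differences of -0.30 and 0.27 in Drosha-deleted samples and of -0.22 and 0.22 in Dicer-deleted samples. Leaving out control replicates 2 and 3 gave -0.17 and 0.02 in Drosha-deleted samples and -0.10 and -0.03 in Dicer-deleted samples. With all controls, the other probes of Cox7c differed in sign, at -0.27 and 0.39 in Drosha-deleted and -0.31 and 0.32 in Dicer-deleted samples. Cox7a1 had -0.07 and -0.30 with all controls, and 0.13 and -0.10 without control replicates 2 and 3. Cox6b1, the ubiquitous partner of Cox6b2, had a difference of -0.12 between Drosha-deleted and Dicer-deleted samples. Cox6b2, Cox7a2, Cox8a and Ndufa4 had differences from control between -0.24 and 0.14, and between -0.06 and 0.18 without control replicates 2 and 3.

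Complex V, the ATP synthase, had no gene with a difference over 0.30 in size. Atp5b, the catalytic beta subunit, was at 17.61, 17.51 and 17.36 in Drosha-deleted samples, 17.31, 17.34 and 17.31 in Dicer-deleted samples, and 17.34, 17.21 and 17.05 in control samples. The Drosha-deleted samples lay above all others, with a difference from control of 0.29 ± 0.12 (adjusted p 0.162) that was 0.16 without control replicates 2 and 3. Atp5a1, the alpha subunit, had 0.20 and 0.18, and Atp5o, a stalk subunit, 0.19 and 0.22. The values against control replicate 1 alone were 0.02 and 0.00 for Atp5a1 and 0.04 and 0.07 for Atp5o. Atp5e, Atp5h and Atp5k, small subunits, had -0.15 to -0.19 in Drosha-deleted and -0.24 to -0.26 in Dicer-deleted samples. Without those controls Atp5e turned to 0.13 and 0.05, Atp5h was at 0.01 and -0.11, and Atp5k at -0.04 and -0.09. Atp5d, a subunit of the central stalk, had a difference of -0.14 between Drosha-deleted and Dicer-deleted samples. Atp5g1, a gene for the c subunit of the rotor ring, was at 15.77, 15.93 and 15.87 in Drosha-deleted samples and 15.65, 15.62 and 15.61 in Dicer-deleted samples, a difference of 0.23 ± 0.10 (adjusted p 0.867). Its controls, at 15.82, 15.79 and 15.79, lay with the Drosha-deleted samples.

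Among the 10 assembly and other factors, Cox7a2l, which is known to join complexes III and IV into supercomplexes, had the lowest adjusted p. It was at 15.89, 15.81 and 16.12 in Drosha-deleted samples, 16.18, 16.20 and 16.18 in Dicer-deleted samples, and 16.15, 16.48 and 16.42 in control samples. Drosha-deleted replicate 3 lay just below control replicate 1, and the other 2 were lower still. The difference from control was -0.41 ± 0.13 in Drosha-deleted samples (adjusted p 0.122) and -0.16 ± 0.13 in Dicer-deleted samples (adjusted p 0.471). Without control replicates 2 and 3 the first was -0.21 and the second 0.04. The other probes of Cox7a2l gave -0.31 to -0.45 in Drosha-deleted samples. Ndufaf3 and Ndufaf4, partners in complex I assembly, had 0.17 and -0.18 in Drosha-deleted and 0.00 and -0.20 in Dicer-deleted samples. They were, without control replicates 2 and 3, 0.26 and 0.18 in Drosha-deleted and 0.10 and 0.16 in Dicer-deleted samples, so that Ndufaf4 turned. Cox4nb had 0.21 and 0.27, which were -0.04 and 0.01 without those controls. Ndufaf2, another complex I assembly factor, Atp5s and Atp5sl had differences of -0.17, 0.18 and -0.16 between Drosha-deleted and Dicer-deleted samples.

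Some groups did not overlap at genes that missed the test. Drosha-deleted samples were all higher than all controls for 9 of the 88 genes (10.2%, against 12.6% of all genes) and all lower for 8 (9.09%, against 10.5%). Dicer-deleted samples were all higher than all controls for 11 (12.5%, against 11.7%) and all lower for 14 (15.9%, against 9.95%). Drosha-deleted samples were all higher than all Dicer-deleted samples for 12 (13.6%, against 8.61%) and all lower for 3 (3.41%, against 6.79%).

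Probes of one gene did not always give the same sign. For 24 genes with more than 1 kept probe, the median range of the differences over the probes was 0.13 in Drosha-deleted and 0.20 in Dicer-deleted samples. The range was over 0.5 for 3 genes in each comparison with control, Atp5c1, Cox7c and Uqcrq. Atp5c1, the gamma subunit of complex V, had -0.07 in Drosha-deleted samples by the probe used and 0.62 by its other probe. Uqcrq had -0.13 by the probe used and 0.40 by its other probe.

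Genes around the respiratory chain were described from lists. Of 23 tested assembly factors with other names, 13 electron carrier genes, 16 genes of the citric acid cycle, 14 of glycolysis and 75 of the mitochondrial ribosome, 0 passed in any of the 3 comparisons, with medians between -0.09 and 0.06 and with 0 to 9 genes of a list at an unadjusted p under 0.05. These were at most 21.7%, 17.4% and 4.00% of a list in the 3 comparisons, against 26.9%, 21.9% and 5.66% of all genes. The citric acid cycle list had medians of -0.06 and 0.01 in Drosha-deleted and Dicer-deleted samples. Without control replicates 2 and 3 these were 0.10 and 0.12, with 14 and 15 of its 16 genes higher than in control replicate 1. The other lists then had medians between -0.02 and 0.07. Of 15 tested regulators of mitochondrial genes 0 passed by limma. At an unadjusted p under 0.05 there were 5, 4 and 1 (33.3%, 26.7% and 6.67%), near the shares of all genes, and Ppargc1a, a coactivator of respiratory genes, was not kept. Tfam, which packages mitochondrial DNA, was at 11.96, 12.03 and 11.67 in Drosha-deleted samples, 12.05, 12.02 and 12.08 in Dicer-deleted samples, and 12.11, 12.72 and 12.65 in control samples. Its differences were -0.61 (adjusted p 0.112) and -0.44 (adjusted p 0.201) by limma. Control replicate 1 lay just above all 6 deleted samples, and control replicates 2 and 3 were higher still. Without control replicates 2 and 3 the differences were -0.23 and -0.06. Nrf1 and Gabpa, whose motifs are shown above, had -0.29 and -0.13 in Drosha-deleted and -0.23 and -0.09 in Dicer-deleted samples. With control replicate 1 alone Nrf1 had -0.06 and 0.01 and Gabpa -0.12 and -0.09.

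The subunits encoded in mitochondrial DNA were measured on the same arrays. The 12 genes had median differences of 0.25 in Drosha-deleted and 0.30 in Dicer-deleted samples, which were 0.05 and -0.01 without control replicates 2 and 3. By limma 0 passed, and 1 gene had an unadjusted p under 0.05 in each deletion (8.33%, against 26.9% and 21.9% of all genes). Relative to each gene's mean, their median by array was -0.05, -0.05 and 0.41 in Drosha-deleted samples, 0.24, 0.07 and -0.03 in Dicer-deleted samples, and 0.04, -0.39 and -0.12 in control samples. Drosha-deleted replicate 3 was the highest and control replicate 2 the lowest, and the groups overlapped. On the same scale, the median of the nuclear genes was -0.03, 0.04 and 0.00 in Drosha-deleted samples, -0.03, -0.04 and -0.03 in Dicer-deleted samples, and -0.01, 0.05 and 0.06 in control samples.

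**Figure D4:**
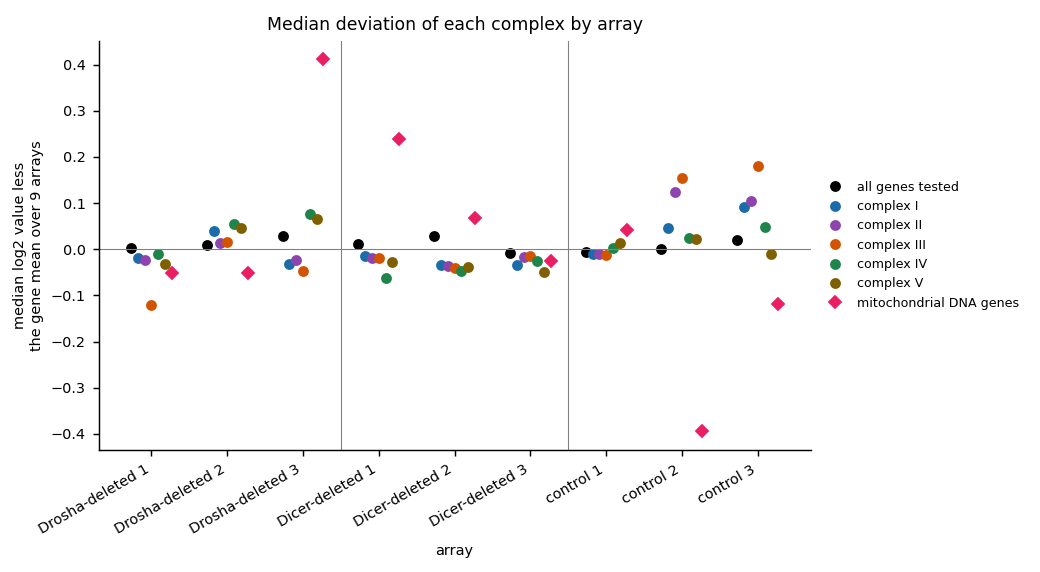
Median over the genes of each complex, over the 12 mitochondrial DNA genes and over all 23020 genes tested, of the log2 value less the mean of the gene over the 9 arrays, by array. Complexes I, II and III have their highest medians in control replicates 2 and 3, complexes IV and V do not, and the mitochondrial DNA genes are at -0.39 and -0.12 on those 2 arrays.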

How the data were processed

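Each of 9 RNA samples was labelled with Cy3 and put on an Agilent array of design 028005, whose probes are placed on mm9. Per the file headers, the deposited scanner files hold intensity values from Feature Extraction 10.7.3.1 (protocol GE1_107_Sep09). The authors' deposited series values are on a log2 scale; limma is named without a version, per the submitters' processing notes, and the background step is not given in the sources used here.

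Spots of a probe were averaged, 3671 of 62976 spots were controls and left out, and each gene name took its probe with the highest mean. A gene was tested where its probe was well above background, by the scanner files' flags, on all arrays of 1 or more groups. In the series values no spot was dropped for an outlier flag and none was imputed; spots with an outlier flag were dropped from the scanner alternatives. Groups were compared with limma 3.58.1 (R 4.3.3, data.table version 1.17.8), a mean per group over all 9 arrays, two-sided tests and Benjamini-Hochberg adjustment over 23020 genes at 0.05. Tables and plots used Python 3.11.15, pandas 2.3.3 and matplotlib 3.10.9. Intervals are at 95%, and 9 arrays limit their precision. The fit was tested on simulated data.

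The members and lists were chosen with earlier results of these data known. Genes named are, per comparison and complex, the 2 highest and 2 lowest differences, and the isoform pairs. Ndufs8, Ndufa2, Ndufb7, Ndufb9, Ndufs6, Ndufv3, Uqcr10, Uqcrq and Atp5c1 were added after their values were seen. From the lists, Cyc1, Mecom, Mpo, S100a9, Pf4, Tfam, Nrf1 and Gabpa were also added then. The results of 1 gene are not reported here; it is counted in the totals. Replicate numbers did not pair samples (correlations of same-numbered deviations of -0.28 to 0.24). Alternatives were scanner values by the 75th percentile, normexp (offset 50) with quantile normalisation, no filter, the mean of probes, a replicate block, a slide block, and each sample left out.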

Additional observations from a re-analysis of the deposited data

How the results depend on the processing

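No nuclear respiratory chain gene passed 0.05 under any alternative except when control replicate 1 was left out. Leaving out each sample in turn gave 0 to 15 such genes for Drosha-deleted against control, 0 to 23 for Dicer-deleted against control and 0 to 10 by the F test, the upper ends all without control replicate 1. Over all 23020 genes, the same runs gave 4 to 7743 calls for Drosha-deleted against control, 0 to 7020 for Dicer-deleted against control and 4 to 16 between the deletions. Without control replicate 1, a smaller share of the 88 than of all genes passed in both comparisons with control. The count over all genes by the F test in that run is not given here. Drosha-deleted against control, 7 genes passed in scanner values, 10 in scanner values without control replicate 2, 1 with normexp and quantile normalisation, 25 with no filter and 13 with the slide as a block. Dicer-deleted against control, 0 passed with normexp, 2 with no filter, and 21 without control replicates 2 and 3 together, an alternative chosen after seeing the data. Drosha-deleted against Dicer-deleted, 2 passed in scanner values, 5 in scanner values without control replicate 2, 1 with normexp and 7 with the slide as a block. As control replicate 3 was alone on its slide, the slide block amounts to leaving that array out and is not a separate alternative. With the replicate number as a block, 4, 0 and 5 genes passed for the 3 comparisons and 0 nuclear respiratory chain genes did; the samples share only a number. The median difference of these genes, less that of all genes, was 0.081, -0.096, -0.21, -0.00232 and 0.00277 for Drosha-deleted against control, in scanner values, scanner values without control replicate 2, normexp, the mean of probes, and without control replicates 2 and 3. For Dicer-deleted against control it was 0.080, -0.11, -0.22, -0.022 and -0.018, so that its sign in scanner values turned when control replicate 2 was left out. Scanner values put the median of all genes at 0.36 and 0.38 in the comparisons with control, and normexp at 0.21 in both. The causes were not tested. The 88 genes were well above background on all 9 arrays, and the 4 not kept have no tested difference.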
